A study of Mus musculus with 6 samples.

Results

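The genes described here encode components, regulators and a receptor of the complement system: C1qa, C1qb, C1qc, C2, C3, Cfb, C3ar1, Serping1 and Cfp. They were taken as a named list of 9 genes, with every probe set that the platform annotation assigns to 1 of them alone. For 8 genes there were such probe sets, 15 in all, and C3 was not analysed here. All 8 were among the 10491 genes tested. Each gene is led by its probe set of highest mean over the arrays, and the 8 lead probe sets were above log2 4, the filter on low values, on all 6 arrays.

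Whole colon came from C57BL/6 mice aged 6 to 8 weeks, all given 2.5% dextran sodium sulfate (DSS) to drink, which injures the colonic epithelium, and sampled on day 7. The 3 deficient mice were labelled PPAR g fl/fl; Lysozyme M cre+, a Cre driven from the lysozyme locus of myeloid cells, and the 3 control littermates carried the same floxed alleles without Cre. Each array held total RNA from 1 mouse, and values are log2 expression summaries of Affymetrix probe sets. Every animal was given DSS, so no value here measures the response to DSS, and Cre was present in the deficient mice alone. The sex of the mice was not given in the sources used here.

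Complement is a chain of plasma and tissue proteins that marks targets for uptake or lysis. C1q, built from the products of C1qa, C1qb and C1qc, recognises antibody and surface patterns and starts the classical pathway, in which C2 forms part of the enzyme that cleaves C3. In the alternative pathway factor B (Cfb) takes the place of C2, and properdin (Cfp) holds that enzyme together. The fragment C3a acts through the receptor C3ar1, and the C1 inhibitor (Serping1) blocks the proteases bound to C1q. Macrophages are a main source of C1q in tissues, properdin is stored in neutrophils, and C2 and factor B are made by epithelium as well as by macrophages and are induced by interferon gamma.

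C1qb, C1qc and C1qa follow each other on chromosome 4 with no other protein-coding gene between them, and Cfb and C2 are neighbours on chromosome 17. RefSeq promoter windows (GRCm38.p6), each running from 250 bases before to 50 bases after the start of the gene, were found for 5 of the 9 genes. Those of C1qb (chr4:136886151-136886450, minus strand), C1qc (chr4:136892865-136893164, minus strand) and C3ar1 (chr6:122856108-122856407, minus strand) are shown, since C1qb and C3ar1 had the closest profiles over the arrays of any pair of these genes and C1qc is the chain next to C1qb. Capitals mark matches to the letters AGGAAG on either strand, the core bound by ETS family factors such as the myeloid factor PU.1, and 1 match to an NF-kappaB site at bases 210 to 219 of the C1qc window.
C1qb: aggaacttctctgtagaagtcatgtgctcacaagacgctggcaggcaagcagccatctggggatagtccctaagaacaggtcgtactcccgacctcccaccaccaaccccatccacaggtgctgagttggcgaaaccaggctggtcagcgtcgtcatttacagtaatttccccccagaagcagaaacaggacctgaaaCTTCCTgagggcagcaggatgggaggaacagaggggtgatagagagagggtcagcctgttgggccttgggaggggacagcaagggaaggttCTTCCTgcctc
C1qc: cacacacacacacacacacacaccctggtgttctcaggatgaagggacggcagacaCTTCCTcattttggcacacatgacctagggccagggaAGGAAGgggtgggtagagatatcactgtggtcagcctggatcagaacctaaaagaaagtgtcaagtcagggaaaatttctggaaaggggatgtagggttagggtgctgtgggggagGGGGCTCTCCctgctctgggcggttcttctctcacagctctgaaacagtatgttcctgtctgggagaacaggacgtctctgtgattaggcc
C3ar1: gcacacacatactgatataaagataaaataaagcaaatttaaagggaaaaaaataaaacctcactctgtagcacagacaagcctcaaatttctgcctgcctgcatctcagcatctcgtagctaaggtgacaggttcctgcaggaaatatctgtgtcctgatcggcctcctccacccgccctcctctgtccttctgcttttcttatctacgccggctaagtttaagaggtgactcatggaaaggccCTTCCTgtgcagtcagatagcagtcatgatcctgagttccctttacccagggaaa

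The letters AGGAAG occurred 2 times in the C1qb window, 2 times in the C1qc window and 1 time in that of C3ar1, and in 0 places in that of Cfp. Of all 32851 promoter windows of this length 35.4% hold them. This motif was added after the windows had been seen. The NF-kappaB site is found in 4.51% of all windows. Interferon elements with the letters GAAANNGAA (8.56% of windows) or TTCNNNGAA (8.3%), the C/EBP letters TTNNGCAA (10.8%) and the PPAR response element (0.28%) had 0 matches in the windows of C1qb, C1qc, C3ar1 and Cfp. The window of C3, the fifth, held 1 C/EBP match and none of the other motifs. Both strands were searched, and no match overlapped another in a window. These are matches of letters, not measured binding.

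2 arrays stood apart. Control replicate 1 and deficient replicate 3 carried small intestine genes, with a mean over 9 enterocyte markers of 12.80 and 11.42 against 5.86 to 8.18 on the other 4, called colon-like here. The colon gene Car1 stood at 2.83 and 7.02 on them and between 13.60 and 15.32 elsewhere. Each group held 1 such array, so differences are also given among the 4 colon-like arrays (2 against 2), between the 2 with small intestine genes (1 against 1), and with this profile as a block. Control replicate 2 was the one array with a signal for Xist, at 12.11, and the other 5 stood at the lowest value of the table. The targeted gene Pparg was at 5.28, 9.91 and 9.54 in control and at 8.77, 8.23 and 4.15 in deficient samples, lowest on the arrays with small intestine genes. It differed by -1.19 (limma unadjusted p 0.517), by -1.22 among the 4 and by -1.13 between the 2. With the tissue profile as a block the limma unadjusted p of Pparg was 0.00198 and the adjusted p 0.273. Since whole tissue was measured, more cells of a type and more RNA per cell cannot be told apart in any value below.

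All 8 measured complement genes were higher on average in the deficient colon. Lead differences ran from 0.51 to 1.36 on the log2 scale, with a median of 0.86 where the median of all genes tested was 0.06 and 57.0% of genes were higher. The groups did not overlap for 4 of the 8, which were C1qa, C1qb, C3ar1 and Cfp, against 9.36% of all genes higher without overlap and 4.15% lower. The same 4 had an unadjusted limma p under 0.05, where 5.1% of all genes were higher and 2.36% lower at that level. None of the 8 passed limma with Benjamini-Hochberg adjustment over all genes, and neither did any other gene (0 of 10491, or 0%, with 783 at an unadjusted p under 0.05). The differences are therefore values rather than called changes. The p-values at 3 against 3 rest on a spread between arrays that mixes mice with the tissue profile. In fits without 1 array the count of members higher at an unadjusted p under 0.05 moved with the array left out. Without control replicates 1, 2 and 3 it was 0, 1 and 3, where 6.97%, 2.55% and 3.08% of all genes were higher at that level. Without deficient replicates 1, 2 and 3 it was 2, 1 and 5, against 3.25%, 2.69% and 7.24% of all genes.

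**Figure D1:**
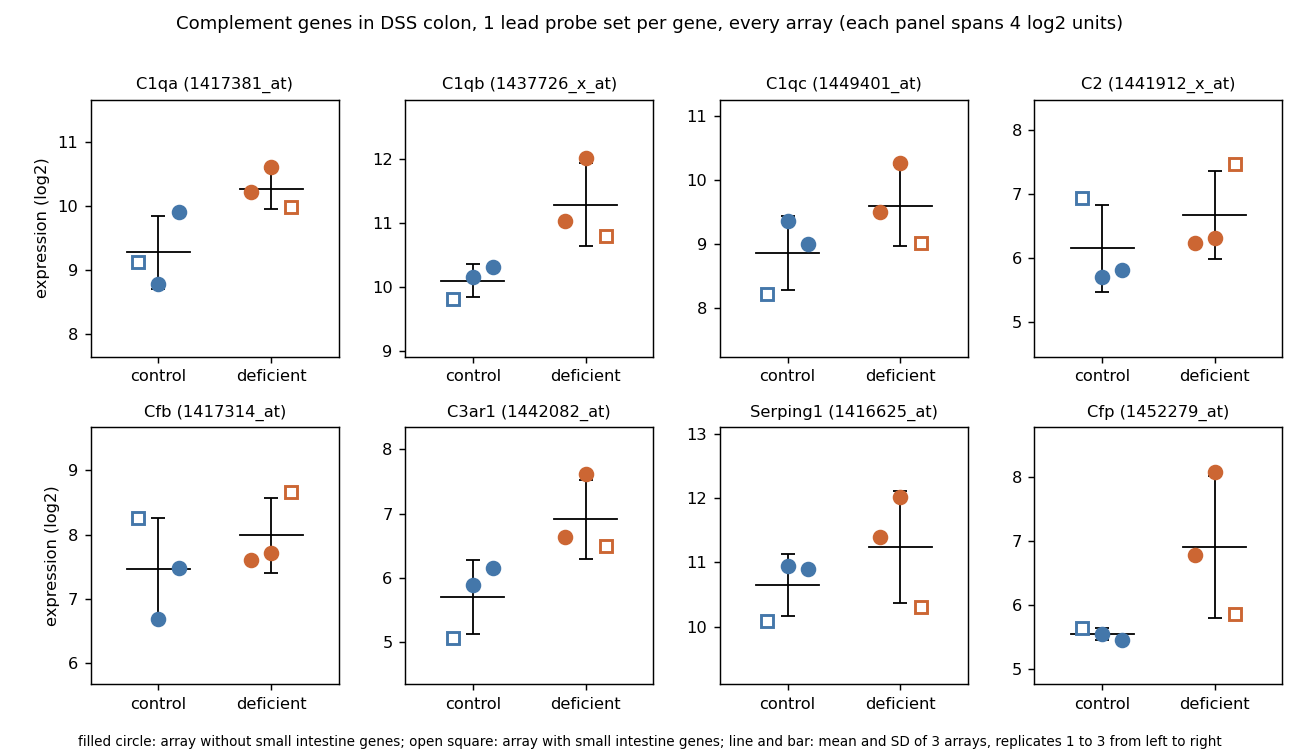
Log2 expression (y axis) of the lead probe set of each of the 8 complement genes on every control and deficient array (x axis), with the mean and SD of 3 arrays. Open squares are the 2 arrays with small intestine genes. C1qa, C1qb, C3ar1 and Cfp had every deficient array above every control array, while C2 and Cfb were highest on the open squares of each group.

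The 3 C1q chains stood higher in the deficient colon, though with 1 overlap. C1qa (1417381_at) was at 9.13, 8.79 and 9.90 on control arrays 1 to 3 and at 10.21, 10.60 and 9.98 on deficient arrays 1 to 3. The lowest deficient array lay just above the highest control array. Its difference was 0.99 with a standard error of 0.34 (10.26 ± 0.31 against 9.27 ± 0.57, SD, n = 3 each; limma unadjusted p 0.0275, adjusted p 0.666). C1qb (1437726_x_at) was at 9.82, 10.16 and 10.32 in control and at 11.03, 12.02 and 10.80 in deficient samples. Its groups were further apart, with a difference of 1.19 and a standard error of 0.36 (11.28 ± 0.65 against 10.10 ± 0.25; limma unadjusted p 0.0170, adjusted p 0.659). C1qc (1449401_at) was at 8.23, 9.36 and 9.01 in control and at 9.50, 10.27 and 9.02 in deficient samples. Deficient replicate 3 lay below control replicate 2, and the difference was 0.73 with a standard error of 0.43 (9.60 ± 0.63 against 8.86 ± 0.58; limma unadjusted p 0.140, adjusted p 0.726).

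The order of the chains between genotypes was alike within both kinds of array. Among the 4 colon-like arrays the differences were 1.06 for C1qa, 1.29 for C1qb and 0.70 for C1qc. Between the 2 others they were 0.85, 0.97 and 0.80. For each chain deficient replicate 2 was the highest array. Without it the C1qc difference was 0.40, and without control replicate 1 it was 0.42, while C1qa kept 0.82 and C1qb 0.82 without deficient replicate 2.

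**Figure D2:**
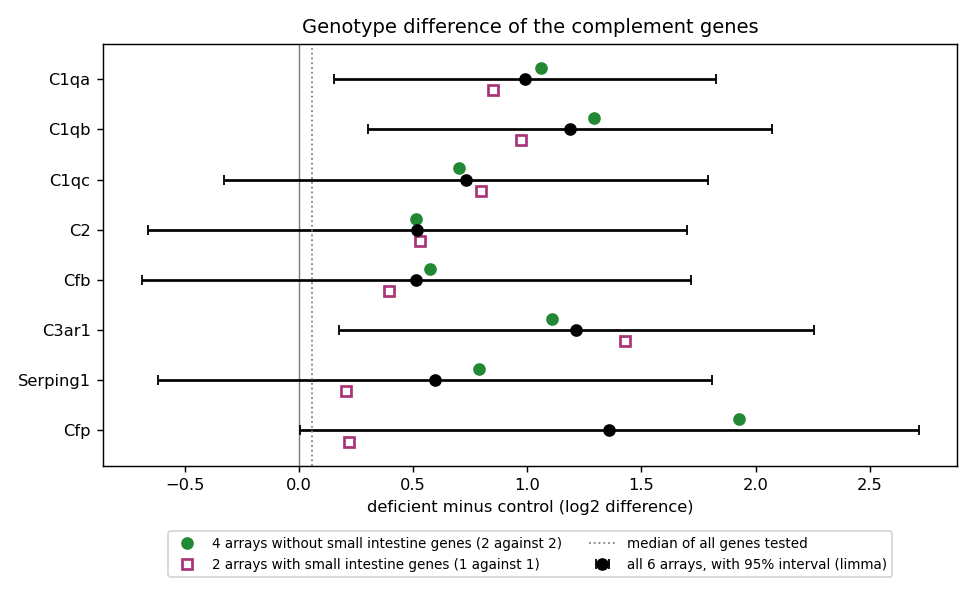
Difference between deficient and control arrays (x axis, log2) for each of the 8 complement genes (y axis), with the 95% interval from limma over all 6 arrays, the value among the 4 colon-like arrays and the value between the 2 arrays with small intestine genes. Every point lies above 0, and the intervals of C1qa, C1qb, C3ar1 and Cfp do not reach 0, before any adjustment for the number of genes.

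C2 and Cfb, the neighbouring genes of the 2 C3-cleaving enzymes, varied more with the tissue profile of the array than with genotype. The lead probe set of C2 (1441912_x_at) was at 6.93, 5.70 and 5.82 in control and at 6.23, 6.32 and 7.46 in deficient samples. Its highest values were those of control replicate 1 and deficient replicate 3, the arrays with small intestine genes, which exceeded the other 4 by 1.18 on average. Cfb (1417314_at) was at 8.26, 6.68 and 7.48 in control and at 7.60, 7.71 and 8.66 in deficient samples. The same 2 arrays were highest and exceeded the other 4 by 1.09. The genotype difference was 0.52 with a standard error of 0.48 for C2 (6.67 ± 0.69 against 6.15 ± 0.68; limma unadjusted p 0.322) and 0.51 with a standard error of 0.49 for Cfb (7.99 ± 0.58 against 7.47 ± 0.79; limma unadjusted p 0.334), both within the spread of the groups. Without single arrays C2 ran from 0.12, without deficient replicate 3, to 0.91, without control replicate 1, and Cfb from 0.12, without control replicate 2, to 0.91, without control replicate 1.

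Within each kind of array the deficient samples were the higher ones for both genes. Among the 4 colon-like arrays C2 differed by 0.51 and Cfb by 0.57, and between the 2 arrays with small intestine genes by 0.53 and 0.39. With the tissue profile as a block the standard error of C2 was 0.14 (limma unadjusted p 0.0133, adjusted p 0.313) and that of Cfb to 0.25 (limma unadjusted p 0.0872, adjusted p 0.427). The value of C2 depends on the probe set, however. Its probe set without a cross-hybridisation suffix (1416051_at) read 7.13, 5.44 and 5.48 in control and 5.81, 5.29 and 7.16 in deficient samples. There the arrays with small intestine genes were again the highest, but the genotype difference was only 0.07. The third C2 probe set (1457664_x_at) differed by 0.50 over all arrays, by 0.85 among the 4 and by -0.20 between the 2.

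Properdin, encoded on the X chromosome by Cfp, had the largest lead difference of the 8 and the least even one. Its lead probe set (1452279_at) was at 5.65, 5.55 and 5.46 in control and at 6.78, 8.08 and 5.87 in deficient samples. Controls were close together, and the deficient arrays spread over more than 2 log2 units. The difference was 1.36 with a standard error of 0.55 (6.91 ± 1.11 against 5.55 ± 0.10; limma unadjusted p 0.0497, adjusted p 0.668). It was 1.93 among the 4 colon-like arrays and 0.22 between the 2 others. Without deficient replicate 2 it was 0.77. The Xist-positive control replicate 2 lay between the other controls. The other Cfp probe set (1447537_at) read 4.82, 5.49 and 5.06 in control and 5.08, 6.23 and 4.63 in deficient samples, with overlapping groups and a difference of 0.19.

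C3ar1, the receptor for C3a, was higher on all of its 3 probe sets. The lead probe set (1442082_at) was at 5.06, 5.89 and 6.15 in control and at 6.63, 7.62 and 6.49 in deficient samples. The groups were apart, with a difference of 1.21 and a standard error of 0.42 (6.91 ± 0.62 against 5.70 ± 0.57; limma unadjusted p 0.0291, adjusted p 0.667). The difference was 1.11 among the 4 colon-like arrays and 1.43 between the 2 others. Probe set 1419482_at was at 3.56, 3.02 and 2.77 in control and at 4.32, 4.26 and 4.80 in deficient samples, a difference of 1.34. Its controls were all under log2 4, so it entered the test through the deficient arrays alone and could only be higher. Probe set 1419483_at differed by 1.34 as well, with deficient replicate 3 and control replicate 3 level at 4.43.

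Serping1, the C1 inhibitor, overlapped between genotypes. Its probe set (1416625_at) was at 10.09, 10.94 and 10.90 in control and at 11.40, 12.02 and 10.30 in deficient samples. The 2 arrays with small intestine genes were the lowest of their groups, 1.12 below the other 4 on average, the reverse of C2 and Cfb. The same contrast between kinds of array was -0.91 for C1qc, larger in size than its genotype difference of 0.73. It was -0.80 for C3ar1, -0.71 for Cfp, -0.57 for C1qb and -0.32 for C1qa. The genotype difference of Serping1 was 0.60 with a standard error of 0.49 (11.24 ± 0.87 against 10.64 ± 0.48; limma unadjusted p 0.274, adjusted p 0.790). Among the 4 other arrays it was 0.79, with both deficient samples above both controls, and between the 2 it was 0.21. Without deficient replicate 2 it was 0.20 and without control replicate 1 it was 0.32, while without deficient replicate 3 it was 1.07.

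With the tissue profile as a block, 6 of the 8 genes had an unadjusted limma p under 0.05, and all of these were higher, where 8.11% of all genes were higher at that level. The 6 were C1qa, C1qb, C1qc, C2, C3ar1 and Cfp, while Cfb stood at 0.0872 and Serping1 at 0.0520. For C2 and Cfp this held for the lead probe set only. With the same block, limma unadjusted p was 0.742 for C2 probe set 1416051_at, 0.162 for 1457664_x_at and 0.610 for Cfp probe set 1447537_at. It was 0.0158 for C1qb probe set 1417063_at, 0.0734 for 1434366_x_at and 0.00635 for C3ar1 probe set 1419483_at. None of the 8 genes passed adjustment over all genes, with adjusted p from 0.303 to 0.427, and neither did any of the 10491 genes (0%).

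**Figure D3:**
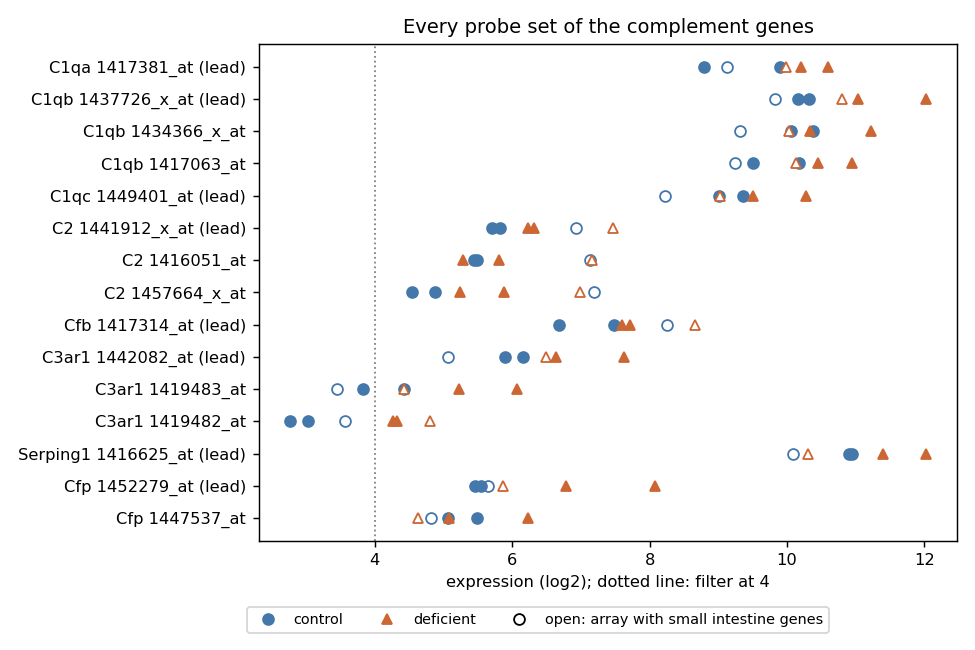
Log2 expression (x axis) of all 15 probe sets of the complement genes (y axis) on each control and deficient array, with open symbols for the arrays with small intestine genes. The 3 probe sets of C1qb and the 3 of C3ar1 had their deficient values shifted to the right, whereas the 3 of C2 were ordered mainly by the open symbols.

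When every probe set was tested on its own, all 15 were higher on average in deficient samples. C3ar1 probe set 1419482_at, with every control under the filter, could only be higher. Of the other 14, groups did not overlap for 4, where 8.51% of 17031 probe sets were higher without overlap. Of the same 14, 6 were higher at an unadjusted limma p under 0.05, against 4.71% of all. After adjustment 1 of the 17031 probe sets passed (0.00587%), and 0 of these 15 did. Probe sets of 1 gene share its RNA and are not separate evidence. For C1qb the lead carries a suffix for cross-hybridisation, and the probe set without one (1417063_at) differed by 0.86, at 9.25, 9.51 and 10.18 in control and 10.45, 10.94 and 10.13 in deficient samples. There control replicate 3 lay above deficient replicate 3. The third (1434366_x_at) differed by 0.61 with overlapping groups.

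Of 46 other complement genes listed by role, 16 passed the filter. On average 13 were higher and 3 lower, where 57.0% of all genes were higher, and the median difference was 0.68. Itgam, counted in these values, had every control under the filter and could only be higher. Of the other 15, 2 were higher at an unadjusted limma p under 0.05 (C1qbp and Itgax) and 1 was lower (Cpn1), where 5.1% of all genes were higher and 2.36% lower. None of the 16 passed adjustment. Of the 7 measured genes of the classical and lectin pathways, 5 were higher. The C1 proteases C1ra and C1s1, which C1q activates, differed by 1.15 (limma unadjusted p 0.0746) and 0.82 (0.0895). C1ra was at 6.52, 6.42 and 7.30 in control and at 8.10, 8.75 and 6.85 in deficient samples, with deficient replicate 3 under control replicate 3. The C1s1 probe set is of a kind shared between related transcripts. Masp1, a protease of the lectin pathway, differed by 0.82 (0.0516), C1qbp, a mitochondrial protein that also binds C1q, by 0.49 (0.0264), and the scavenger lectin Colec12 by 0.44 (0.639). Fcna, a ficolin, and Colec10, a collectin, were lower by -0.13 (0.938) and -0.10 (0.840). Fcna read 3.45 and 2.64 where small intestine genes were present and 6.66 to 7.59 on the rest. Among the 4 it was higher by 0.21.

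The 5 measured inhibitors had a median difference of 0.27. Cd55, which speeds the decay of the C3-cleaving enzymes on host cells, differed by 1.11 (limma unadjusted p 0.0922) and was highest on deficient replicate 2 at 10.13. Cd59a, which blocks the lytic pore, differed by 0.07 (0.843) and Cr1l, a membrane regulator of C3 in mice, by 0.27 (0.227). Clusterin (Clu), a fluid-phase inhibitor, differed by 0.54 (0.344). Cpn1, a subunit of the carboxypeptidase that inactivates C3a and C5a, was lower, with controls at 5.11, 5.76 and 4.84 and deficient samples at 4.84, 3.62 and 3.78. Deficient replicate 1 and control replicate 3 met at 4.84, and the difference was -1.16 (limma unadjusted p 0.0313, adjusted p 0.667).

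The 4 measured receptor genes of the list had a median difference of 1.22. Itgam is among them and, with every control under the filter, could only be higher. Itgb2, Itgax and C5ar1 were also higher on average, where 57.0% of all genes were. Itgam and Itgb2, the chains of complement receptor 3 on myeloid cells, differed by 1.76 (limma unadjusted p 0.00607) and 1.35 (0.0518). The filter fixed the direction of Itgam, so its p is not evidence of a difference. Itgam was at 3.69, 3.19 and 3.23 in control and at 4.95, 5.99 and 4.44 in deficient samples. Itgax, the chain of complement receptor 4, differed by 0.97 (0.0315) and the C5a receptor C5ar1 by 1.08 (0.0946). The median of the 4 genes, Itgam included, was 1.74 among the 4 colon-like arrays and 0.26 between the 2 others. No gene of the terminal pathway entered the test: Hc, C6, C8a, C8b, C8g and C9 did not pass the filter. Nor did Mbl1, Mbl2, Masp2, Fcnb, Colec11, Cfhr2, Cfi, C4bp, Cd55b, Cd46, Vtn, Cpn2, Cr2 and Vsig4. C7, Cfd, C1rb, C1s2, C4a, C4b, Cd59b and C5ar2 were not analysed here.

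**Figure D4:**
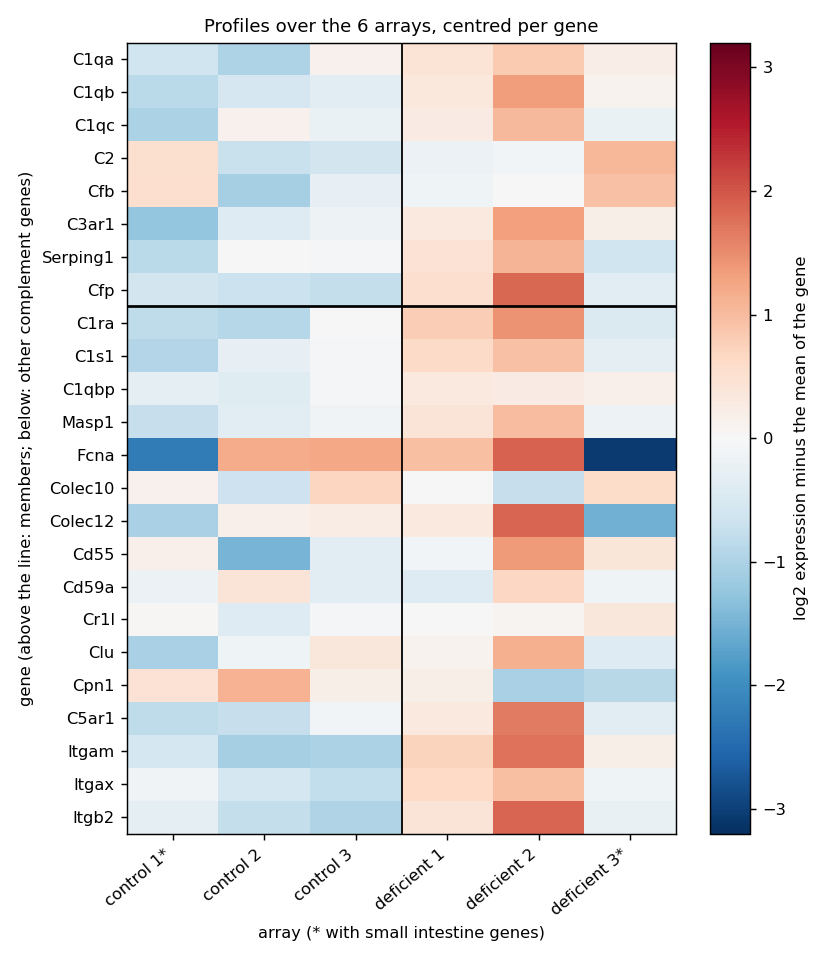
Log2 expression of the 8 complement genes (above the line) and 16 other complement genes (below) on the 6 arrays (x axis), each gene centred on its own mean and coloured from below (blue) to above (red) its mean. C1qa, C1qb, C1qc, C3ar1, Serping1 and Cfp share their highest array, deficient replicate 2, while C2 and Cfb are highest on deficient replicate 3.

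Profiles over the 6 arrays were compared by the root mean square difference after centring each gene on its mean, a description over arrays that share genotype and tissue profile. The gene nearest to C3ar1 among 10491 was C1qb, at 0.19 log2 units, followed by Srpx2 (0.20), and C3ar1 was in turn the seventh nearest to C1qb. Nearest to C1qb were Selenon (0.09) and Fcer1g (0.12), the shared signalling chain of Fc receptors. C1qa was nearest to Ctbs (0.16) and Ecm1 (0.19), and C1qc to Ppm1m (0.10) and Rhoj (0.13). C2 and Cfb differed from each other by 0.21, which placed Cfb as number 18 in the order from C2 and C2 as number 15 in the order from Cfb. The nearest of all to C2 were Fdft1 (0.12) and B4galt1 (0.13), and to Cfb Med27 (0.15) and Bpgm (0.16). Serping1 lay nearest to Zeb1 (0.07), a transcription factor of mesenchymal cells, and Cald1 (0.08), a contractile protein of smooth muscle and fibroblasts. Cfp lay nearest to the leukocyte genes Itgb2 (0.16) and Cd53 (0.17).

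Markers of cell types that can make complement are given beside these values. Of 21 macrophage and monocyte markers 19 were measured and 15 were higher, with a median difference of 0.73. It was 1.17 among the 4 colon-like arrays and 0.56 between the 2 others. At an unadjusted limma p under 0.05, 8 were higher and 1 lower, where 5.1% of all genes were higher and 2.36% lower. None passed adjustment. The 8 had no overlap between groups: Msr1 (2.20), Fcgr1 (2.18), Aif1 (1.5), Tyrobp (1.40), Lgmn (1.24), Ly86 (1.20), Mpeg1 (0.97) and Ctss (0.55). Another 2, Lyz2 and Cx3cr1, were lower without overlap. Of all genes 9.36% were higher and 4.15% lower without overlap. The mean log2 level of the 19 was 8.41 to 8.71 on control and 8.91 to 9.46 on deficient arrays. Their summed level, which weights its brightest genes (Ctss, Cd74 and Maf), ran from 14.08 to 15.16 in control and from 14.80 to 14.84 in deficient samples, on the log2 scale. The groups thus overlapped in the sum and not in the mean. The highest sum was that of control replicate 1, the array on which C1qb, C1qc, C3ar1 and Serping1 were lowest. Markers of the list were divided on that array. Cd74 (13.49), Maf (13.21), Lyz2 and Mertk were highest there, while Adgre1, Csf1r, Cd68, Cd14, Aif1, Mrc1, Tyrobp and Lgmn were lowest there. Maf was at 12.89 on deficient replicate 3, which also carried small intestine genes, and at 10.18 to 10.91 elsewhere. Ccr2 was not in the test. Lyz2, in this list, sits at the Cre locus and differed by -4.29. It read 12.32, 11.79 and 12.19 in control and 6.80, 6.24 and 10.39 in deficient samples. Both the sum and the mean include that difference. Csf1r, the receptor for the macrophage growth factor, was higher by 0.64 and Adgre1 by 0.24, while Mertk (-0.77), Cx3cr1 (-0.31) and Maf (-0.14) were lower. The part of macrophage content in the C1q and C3ar1 differences was not tested.

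Neutrophil markers, among them S100a8, S100a9 and Lcn2, were measured for 8 of 12 genes and were all higher, where 57.0% of all genes were. Their median difference was 2.79, which was 3.73 among the 4 colon-like arrays and 0.94 between the 2 others. Groups did not overlap for 3 of the 8, against 9.36% of all genes higher without overlap. S100a8, S100a9 and Lcn2 were not among them, since their groups overlapped. S100a9 read 3.51 and 3.35 on control replicates 1 and 2, under the filter. Any marker with every control under the filter could only be higher. Such markers were not taken out of the 8, so the counts and the median here describe the list and are not evidence of a difference. The summed level of the neutrophil markers was 7.83 to 9.90 in control and 9.31 to 13.79 in deficient samples, highest on deficient replicate 2. So were Cfp, C1qa, C1qb, C1qc, C3ar1 and Serping1. Cxcr2 was under log2 4 on every array. All 9 fibroblast markers were higher, with a median of 0.53. Their summed level ran from 13.97 to 15.15 in control and from 14.69 to 15.97 in deficient samples. It was lowest on the arrays with small intestine genes in each group, as were Serping1, C1qb, C1qc and C3ar1. The fibroblast sum, too, was highest on deficient replicate 2. Of 28 interferon response genes 24 were measured and 21 were higher, with a median of 0.64, but of 1.40 among the 4 colon-like arrays and -0.07 between the 2 others. Epithelial markers had a median difference of -0.03. The hepatocyte markers Alb, Fga, Fgb and Ahsg were under log2 4 on every array. The part of these cell types in the complement values was not tested.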

How the data were processed

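The deposited table holds log2 values of each probe set. GCRMA is the tool in the submitters' processing notes; its version and settings are not given there. Whether the arrays were summarised jointly is unknown. The background model can compress differences near the lowest value of the table. The number of arrays, 3 per group, limits precision.

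Of 45101 probe sets 34958 named 1 gene in the platform annotation. Those above log2 4 on at least 3 of 6 arrays were kept (17031), and each gene was represented by its brightest (10491 genes). The 2 genotypes were set against each other by limma (version 3.58.1, R 4.3.3) in a two-sided moderated test without covariates. Adjusted p-values are Benjamini-Hochberg values over the 10491 genes, with a threshold of 0.05. The procedure was tested on simulated data. Arrays with small intestine genes were those whose mean over 9 markers lay above the midpoint of its range. Promoters came from RefSeq (GRCm38.p6). The members, lists and alternatives were chosen with earlier results of these data known. Named were all members, all measured genes of the complement lists, the 2 nearest profiles of each member, up to 3 of the brightest genes of a marker list, and Pparg, Lyz2 and Car1 as checks. Msr1, Fcgr1, Aif1, Tyrobp, Lgmn, Ly86, Mpeg1, Csf1r, Adgre1, Mertk, Cx3cr1, Cd68, Cd14, Mrc1 and Xist were named after their values were seen, as were Ccr2, Cxcr2, Alb, Fga, Fgb and Ahsg. Some listed genes without a result are not reported here.

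Other marker lists gave median differences of -1.01 (small intestine enterocyte, 9 of 15 measured), 1.33 (colonocyte, 7 of 11), 0.35 (endothelial, 7 of 7), -1.89 (B and plasma cell, 3 of 9), -0.45 (T and NK cell, 2 of 10) and 0.26 (mesothelial, 3 of 4), and 1 of 7 hepatocyte markers was measured.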

Additional observations from a re-analysis of the deposited data

How the results depend on the processing

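The alternatives were a stricter filter (log2 6) or none, median centring, quantile normalization, averaged probe sets, probe sets without cross-hybridisation suffixes, a floor at log2 4, eBayes with trend and robust, a replicate block, the tissue profile as a block, leaving out both arrays with small intestine genes, and leaving out each array. In all 17 no gene and no member passed an adjusted p under 0.05, while an unadjusted p under 0.05 in place of the adjusted one takes in 783 genes and 4 members. The median of the members ran from 0.73 to 1.10, and each member kept its direction (Cfp in the 16 settings where it was measured). Whether replicate numbers pair the mice cannot be told from the values. Deviations of same-numbered arrays correlated at -0.54, 0.36 and -0.61 across genes. The 2 arrays with small intestine genes, which differ in number, correlated at 0.69, so the tissue profile weighs on these correlations. With the replicate block the C1qa difference was 0.99 (limma unadjusted p 0.0744), and 2 members were under 0.05. With averaged probe sets Cfp differed by 0.77 and C2 by 0.36, and without suffixed probe sets C2 differed by 0.07. Of 265 alternative values of the other 16 complement genes 11 changed sign. Fcna did so with the floor (0.14), without both arrays with small intestine genes (0.21) and without single arrays (-1.28 to 1.37), as did Cd59a (-0.24 to 0.30), Colec10 (-0.46 to 0.25) and Colec12 (-0.38 to 1.31) without single arrays. Others moved by over 1.5 times without 1 array. Without deficient replicate 2, Clu differed by 0.11, C5ar1 by 0.52, Masp1 by 0.54, Cd55 by 0.71, C1ra by 0.73 and Itgb2 by 0.76. Without control replicate 1 Clu differed by 0.16, without control replicate 2 Cr1l by 0.13 and Cd55 by 0.64, and without control replicate 3 Clu by 0.86. Without deficient replicate 3 Cr1l differed by 0.16 and Clu by 0.89. The cause was not tested. Genes near the floor, such as Itgam and C3ar1 probe set 1419482_at, are limited by signal over background.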
